A study of Homo sapiens with 6 samples.

Results

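Insulin and IGF signalling was followed through 10 genes: IRS1, IRS2, INSR, IGF1R, IGF2R, IGFBP3, IGFBP5, FOXO1, FOXO3 and PIK3R1. They were taken by symbol from files that list 17356 gene symbols, and all 10 were listed. The set was selected on the signal in these same libraries, with the difference between the groups known, so its values are a description and carry no test. RNA-seq had been done on C4-2B-ENZR, a human prostate cancer cell line whose name marks its resistance to the androgen receptor antagonist enzalutamide. The groups were siKIF15, 3 libraries from cells that received an siRNA against KIF15, a kinesin of the mitotic spindle, and NC, 3 libraries from cells that received a negative control siRNA. Both were grown with fetal bovine serum, and the labels mention neither the siRNA sequences nor enzalutamide in the medium. The study's title ties KIF15 to resistance, and the contrast addresses what changes in the transcriptome when it is targeted.

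Insulin binds the receptor kinase INSR, and IGF1 and IGF2 bind the related IGF1R. Both receptors phosphorylate the adaptors IRS1 and IRS2, which recruit phosphoinositide 3-kinase through its regulatory subunit PIK3R1 and so activate AKT. AKT keeps the FOXO transcription factors out of the nucleus; when signalling is low, FOXO factors enter it and raise INSR and IRS2 transcription. IGF2R clears IGF2, and IGF-binding proteins hold IGFs in the extracellular fluid. In prostate cancer this axis is known as a growth and survival input beside the androgen receptor.

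Values are a signal per gene deposited by the authors, apparently gene counts adjusted to a common library size and not divided by gene length. Sequencing depth is therefore unknown, and the sums of the values, 50360191 to 53157388 in siKIF15 and 49460840 to 50063012 in NC, are not depths. The labels do not name separate cultures, so the spread between libraries, and any p-value, may reflect technical variation alone. KIF15 itself stood at 294.8, 333.1 and 363 in the libraries labelled siKIF15, against 366.4, 403.6 and 319 in NC (log2 difference -0.13 ± 0.14 SE, limma adjusted p = 0.57). The targeted transcript thus does not bear out the label, and siKIF15 below means the libraries so labelled. All 10 prostate luminal markers were present in every library, with summed signals of 323654.1 to 344376.6 in siKIF15 and 299813.8 to 309191.1 in NC. Other cell types were scarce: 5 leukocyte markers, with the defining PTPRC at 0 in all siKIF15 libraries and at most 3.8 in NC, summed to 27.5 to 57.1 in siKIF15 and 23.4 to 54.3 in NC, 5 endothelial markers to 337.6 to 429.3 and 325.1 to 351.7, and 9 fibroblast markers to 463.3 to 514.7 and 498.5 to 529.8. FAP (6.6 in siKIF15 and 0.8 in NC) and PDGFRA (5.9 and 0.8) rose near the floor (limma adjusted p = 0.030 and 0.042), calls that ended without siKIF15 1, siKIF15 2, NC 1 or NC 3, and for PDGFRA also without siKIF15 3; their part in the results below was not tested. Most of the fibroblast sum came from COL1A1 and PDGFRB, and most of the endothelial sum from VWF.

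Libraries siKIF15 2 and siKIF15 3 differed from each other in their relation to transcript length, and siKIF15 3 from the other siKIF15 libraries in its relation to GC content. Over 13416 genes, which are not independent, the deviation of a library from its group mean had a Spearman correlation with transcript length of -0.51 in siKIF15 2, 0.43 in siKIF15 3 and 0.04 in siKIF15 1, and between -0.18 and 0.11 in the NC libraries. With GC content it was 0.43 in siKIF15 2, -0.63 in siKIF15 3 and 0.44 in siKIF15 1, and between -0.25 and 0.15 in NC. Within a group the deviations of a gene cancel out, so the correlations of its libraries are tied. They cannot show which library departs. Of the 10 genes, 9 have a transcript of at least 4000 bases, and the same number were lowest in siKIF15 2 among the siKIF15 libraries. Each difference is therefore also given without siKIF15 2, and without siKIF15 3 where the genes are counted together. A difference is the mean of log2(signal + 1) in siKIF15 minus that in NC, with the standard error and interval of a limma fit over all genes.

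The promoters are shown because IRS2, IRS1 and FOXO3 were lower together in siKIF15 while IGFBP3 was higher. For each, the 250 bases before the RefSeq gene start (GRCh38.p14) are given 5′ to 3′ on the gene's strand, with GC boxes (GGGCGG or CCGCCC, the letters bound by SP1-type factors) in capitals. FOXO3 has 4 annotated starts, and the most upstream is used.
IRS2, chr13:109786584-109786833, minus strand: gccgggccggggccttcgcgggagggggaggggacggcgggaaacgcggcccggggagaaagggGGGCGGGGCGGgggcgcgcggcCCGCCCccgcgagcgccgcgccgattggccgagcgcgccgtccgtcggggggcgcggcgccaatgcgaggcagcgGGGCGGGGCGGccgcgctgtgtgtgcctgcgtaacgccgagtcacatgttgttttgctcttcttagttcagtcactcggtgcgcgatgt
IRS1, chr2:226799821-226800070, minus strand: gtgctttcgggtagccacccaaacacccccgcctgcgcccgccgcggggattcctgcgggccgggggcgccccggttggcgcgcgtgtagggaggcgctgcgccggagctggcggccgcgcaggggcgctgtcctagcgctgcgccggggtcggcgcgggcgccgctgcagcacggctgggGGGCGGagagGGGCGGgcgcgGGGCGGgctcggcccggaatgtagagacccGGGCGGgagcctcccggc
FOXO3, chr6:108559575-108559824, plus strand: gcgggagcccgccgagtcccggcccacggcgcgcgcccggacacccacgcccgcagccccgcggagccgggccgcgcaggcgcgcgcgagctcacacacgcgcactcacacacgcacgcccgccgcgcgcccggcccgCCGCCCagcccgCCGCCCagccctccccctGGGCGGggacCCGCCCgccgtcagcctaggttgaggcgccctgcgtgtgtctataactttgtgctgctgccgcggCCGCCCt
IGFBP3, chr7:45921273-45921522, minus strand: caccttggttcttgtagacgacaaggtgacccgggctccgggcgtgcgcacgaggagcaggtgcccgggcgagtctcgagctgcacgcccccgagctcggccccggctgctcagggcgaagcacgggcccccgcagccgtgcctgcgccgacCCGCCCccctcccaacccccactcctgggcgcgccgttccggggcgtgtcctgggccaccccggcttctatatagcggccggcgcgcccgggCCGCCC

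All 4 stretches are rich in G and C, at 76.4%, 80.8%, 80.4% and 76.0% of bases, and hold 5, 4, 5 and 2 GC boxes on either strand. Over 35116 RefSeq promoter windows of 300 bases (250 before to 50 after the start), 45% hold at least 1 GC box and the median GC content is 58.7%. GC boxes do not set these 4 genes apart from the rest of the set: the same stretch holds 6 for IGF2R, 5 for the most upstream PIK3R1 start, 4 each for INSR and FOXO1, 2 for IGF1R and 0 for IGFBP5. The stretch of IGFBP3, which was higher, is as rich in G and C as that of IRS2, which was lower. The FOXO core GTAAACA (or TGTTTAC) occurs in none of the 16 windows annotated for the 10 genes and in 3.42% of all windows; the letters are not in these windows, which says nothing of FOXO binding elsewhere. The interferon response element core, searched on both strands, occurs in 3.57% of all windows and in the FOXO1 window, at position -184 from the start, shown here in capitals.
FOXO1, chr13:40666791-40666850, minus strand: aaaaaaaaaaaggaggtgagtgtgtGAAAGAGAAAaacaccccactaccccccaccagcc
It also occurs once in the most downstream FOXO3 window, at position -33 from that start.

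**Figure D1:**
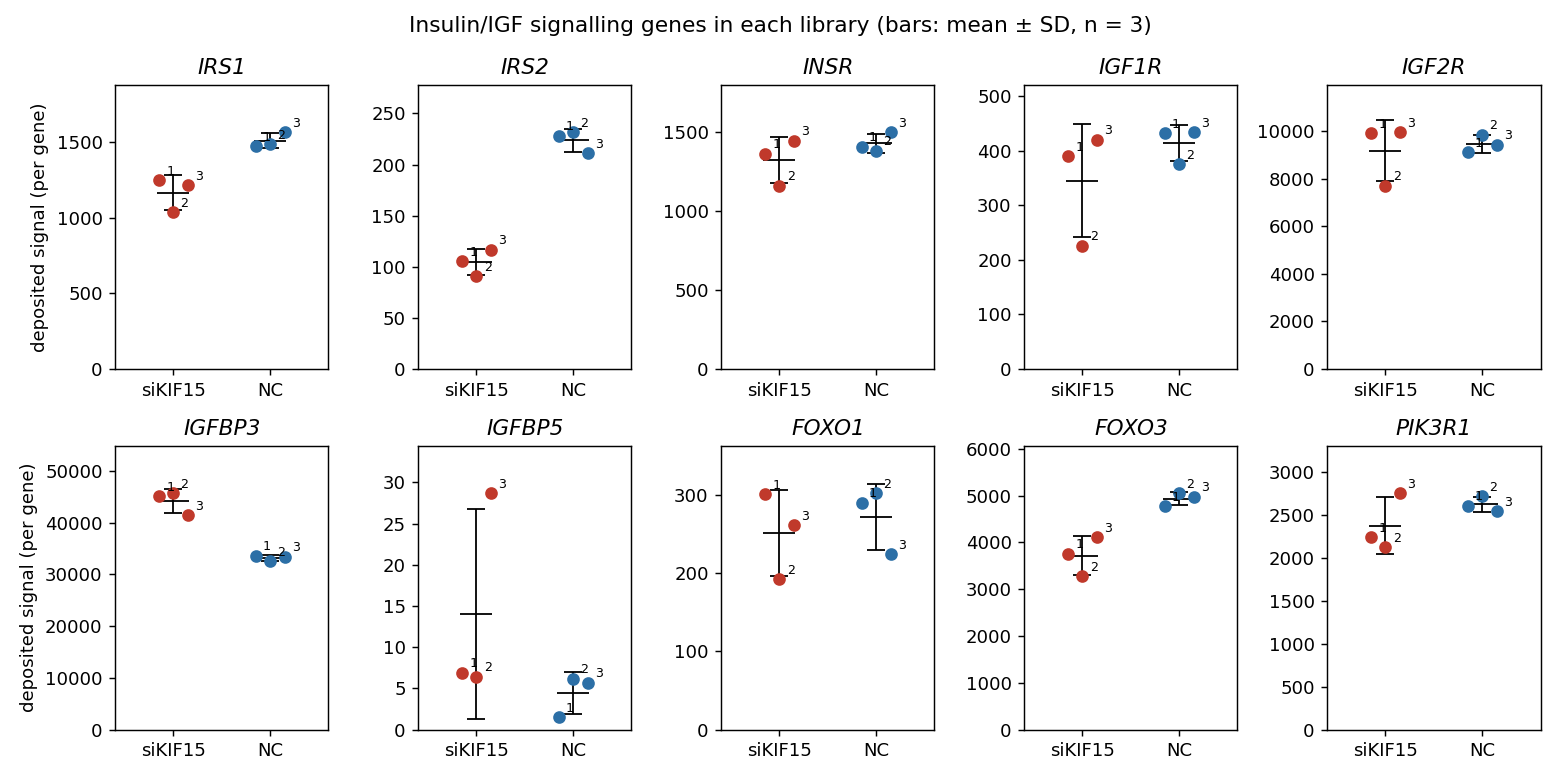
Deposited signal of each of the 10 genes (y axis, linear from 0) in the siKIF15 libraries (red, left) and the NC libraries (blue, right), numbered by replicate, with mean and SD (n = 3). IRS2, IRS1 and FOXO3 lie lower in every siKIF15 library than in any NC library and IGFBP3 lies higher, whereas INSR, IGF1R, IGF2R, FOXO1 and PIK3R1 overlap.

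IRS2 showed the largest difference of the well-expressed genes of the set. This adaptor (chromosome 13, 109752698 to 109786568, minus strand, GRCh38, 2 exons, a transcript of 8138 bases) had a signal of 105.6, 91 and 116.5 in siKIF15, against 228.1, 231.6 and 211.2 in NC. The highest siKIF15 library lay far below the lowest NC library. The means were 104.4 ± 12.8 and 223.7 ± 10.9 (SD, n = 3 each), a ratio of 0.467. The log2 difference was -1.10 ± 0.18 (SE; 95% interval -1.47 to -0.73), and -1.004 without siKIF15 2. In bulk RNA, fewer cells that express a gene and less of its RNA per cell cannot be told apart.

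IRS1, the paralogous adaptor (chromosome 2, 226731317 to 226799759, minus strand, 2 exons, 9705 bases), was also lower, by less. Its signal was 1246.1, 1034.1 and 1215.2 in siKIF15, against 1471.2, 1484.6 and 1563.5 in NC. The groups did not overlap, and siKIF15 2 was the lowest library. The log2 difference was -0.37 ± 0.09 (95% interval -0.57 to -0.18) and -0.29 without siKIF15 2. Correcting every library for GC content and transcript length left -0.22 for IRS1 and -1.02 for IRS2. This correction also removes any difference between the groups that follows GC content or length. Per kilobase of transcript, IRS1 exceeded IRS2 by 9.89-, 9.53- and 8.75-fold in siKIF15, against 5.41-, 5.38- and 6.21-fold in NC. The transcript balance of the adaptors lay further towards IRS1 in each siKIF15 library than in any NC library, which restates the larger fall of IRS2.

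The 3 receptors overlapped between the groups. INSR, the insulin receptor (chromosome 19, 7112255 to 7294034, minus strand, 22 exons), had a signal of 1359.5, 1156.3 and 1442.1 in siKIF15, against 1404.7, 1378.5 and 1495.3 in NC. Libraries siKIF15 1 and siKIF15 2 lay below the lowest NC library, siKIF15 1 only slightly. Its log2 difference was -0.12 ± 0.10 (95% interval -0.32 to 0.08), and -0.03 without siKIF15 2. IGF1R, the IGF1 receptor (chromosome 15, 98648539 to 98964530, plus strand, 21 exons, a transcript of 12235 bases), had a signal of 389.9, 226.2 and 420.6 in siKIF15, against 432.4, 375.5 and 434.1 in NC. Here siKIF15 2 decided the value: the log2 difference was -0.31 ± 0.19 (95% interval -0.71 to 0.10) with it and -0.03 without it, and -0.11 after the GC and length correction. IGF2R, the clearance receptor for IGF2 and a carrier of lysosomal enzymes (chromosome 6, 159969099 to 160113507, plus strand, 48 exons), has the longest transcript of the set at 14044 bases. Its signal was 9914, 7709.3 and 9965.8 in siKIF15, against 9130.7, 9870.7 and 9434.5 in NC, so siKIF15 2 was the lowest and the others were the highest of all libraries. The log2 difference of -0.05 ± 0.09 (95% interval -0.24 to 0.14) had no stable direction, being 0.07 without siKIF15 2 and 0.20 after the GC and length correction. The intervals of INSR and IGF2R reach log2 differences of at most 0.32 in size, and that of IGF1R a larger one. They reflect only the spread between these libraries, and the corrected value of IGF2R lies outside its own interval.

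IGFBP3 was the only one of the 4 genes of the set past the all-gene threshold to be higher. IGFBP3, the main carrier of IGFs in blood (chromosome 7, 45912245 to 45921874, minus strand, 5 exons), has the shortest transcript of the set at 2262 bases. Its signal was 45105.7, 45726.9 and 41440.1 in siKIF15, against 33583.7, 32590.8 and 33388.8 in NC. The groups were well apart, and siKIF15 2 was here the highest library. The means were 44090.9 ± 2316.5 and 33187.8 ± 526.1 (SD, n = 3 each), a 1.33-fold difference. The log2 difference was 0.41 ± 0.07 (95% interval 0.26 to 0.56), 0.38 without siKIF15 2, 0.35 with the libraries scaled to equal totals and 0.29 after the GC and length correction. IGFBP5, a binding protein prominent in stroma and bone (chromosome 2, 216672105 to 216695525, minus strand, 4 exons), was near the floor. Its signal was 6.9, 6.4 and 28.7 in siKIF15, against 1.5, 6.2 and 5.7 in NC. The groups were barely apart, and siKIF15 3 alone was high. The log2 difference of 1.27 ± 0.63 (95% interval -0.07 to 2.62) was 0.62 without siKIF15 3 and 1.62 without siKIF15 2.

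Of the FOXO factors, FOXO3 was lower and FOXO1 was not separable. FOXO3, which drives genes of cell cycle arrest, apoptosis and stress resistance (chromosome 6, 108559835 to 108684774, plus strand, 3 exons), had a signal of 3763.9, 3278.3 and 4113.1 in siKIF15, against 4774.4, 5056.4 and 4979.3 in NC. Every siKIF15 library lay below every NC library. The log2 difference was -0.41 ± 0.08 (95% interval -0.59 to -0.24), -0.33 without siKIF15 2 and -0.29 after the GC and length correction. FOXO3 has a near-identical pseudogene copy, and how shared reads were counted is not stated, so its level is uncertain. FOXO1, the FOXO factor best known for insulin-controlled gluconeogenic genes in liver (chromosome 13, 40469953 to 40666597, minus strand, 3 exons), had a signal of 300.6, 192.6 and 261 in siKIF15, against 289.9, 302.5 and 224.2 in NC. Both groups spread widely and overlapped. Its log2 difference was -0.13 ± 0.18 (95% interval -0.51 to 0.26) and turned to 0.05 without siKIF15 2; it was -0.01 after the GC and length correction.

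PIK3R1, which encodes the regulatory subunits of phosphoinositide 3-kinase that bind phosphorylated IRS proteins (chromosome 5, 68215720 to 68301821, plus strand, 16 exons), had a signal of 2236, 2123.3 and 2750.1 in siKIF15, against 2602.9, 2715.6 and 2538.3 in NC. The library siKIF15 3 was the highest and the others were the lowest of all. The log2 difference was -0.15 ± 0.09 (95% interval -0.35 to 0.04), -0.08 without siKIF15 2 and 0.07 after the GC and length correction.

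**Figure D2:**
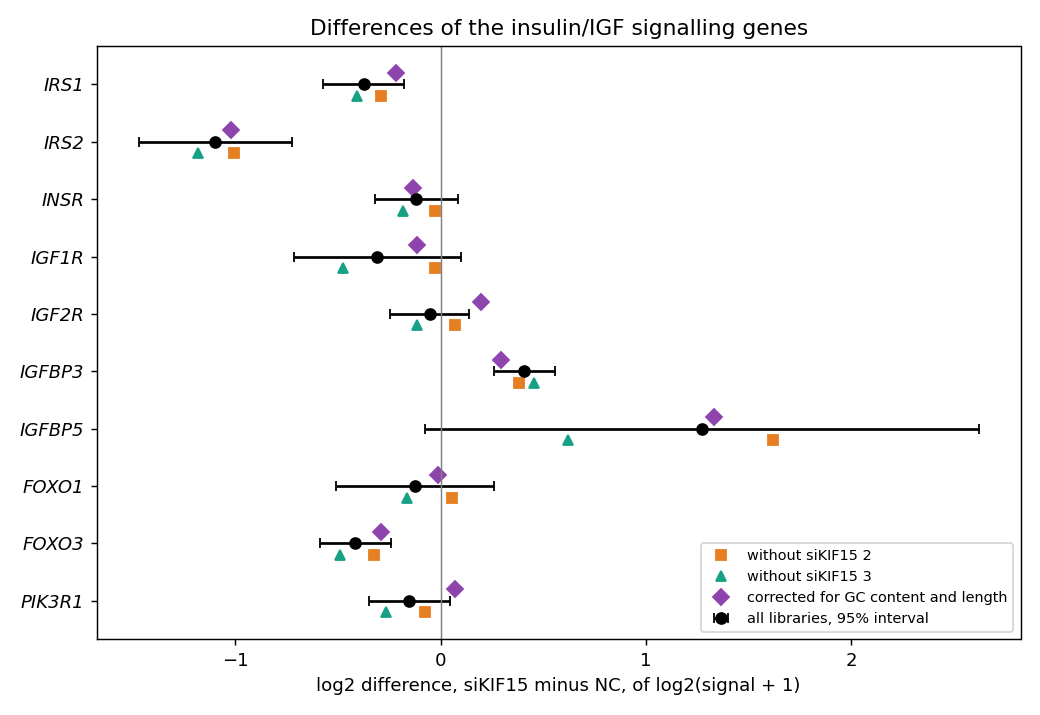
Log2 difference of each gene, siKIF15 minus NC (x axis), with 95% interval from all 6 libraries (black), and the value without siKIF15 2, without siKIF15 3 and after correction for GC content and length. IRS2 stays between -1.18 and -1.004 in these fits, whereas IGF2R, FOXO1 and PIK3R1 lie on both sides of 0.

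Counted together, 8 of the 10 genes had a lower mean in siKIF15 and 2 a higher one, and 3 lay wholly below and 2 wholly above NC. Among all 16548 genes tested, 34.8% did not overlap between the groups (16.5% below and 18.3% above). The number past an adjusted p of 0.05 was 4 of 10, with IRS2, IRS1 and FOXO3 lower and IGFBP3 higher, where 18% of all genes tested were called (9.66% higher and 8.33% lower). Nothing is read from these shares, since the genes were picked with this contrast known. IRS2 and IGFBP3 were past the threshold in all 16 alternative fits. IRS1 was not past it without NC 2, without NC 3 or in limma without the intensity trend, and FOXO3 not in the last of these. PIK3R1, lower, passed only without siKIF15 3, and IGF2R, there higher, only in the fits corrected for GC content and length. More genes of all kinds passed in these fits. The calls were 5077 of 16573 without siKIF15 3 and 4407 of 16122 after the correction, in place of 2978 of 16548. Without siKIF15 3 the differences of the 9 genes other than IGFBP5 were larger in size than with all libraries. They were -1.18 for IRS2, -0.41 for IRS1, -0.49 for FOXO3, -0.47 for IGF1R and -0.26 for PIK3R1. INSR was then at -0.18, FOXO1 at -0.165, IGF2R at -0.12 and IGFBP3 at 0.45. With libraries scaled to equal totals the calls over all genes were 1205 higher and 1753 lower, in place of 1599 and 1379. All 10 genes varied more within siKIF15 than within NC. The share over all genes was not computed, so nothing particular to the set is read from this. For the 9 genes other than IGFBP5, the coefficient of variation ran from 5.3% to 30.2% in siKIF15 and from 1.6% to 15.5% in NC, and was highest for IGF1R in siKIF15 and for FOXO1 in NC.

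**Figure D3:**
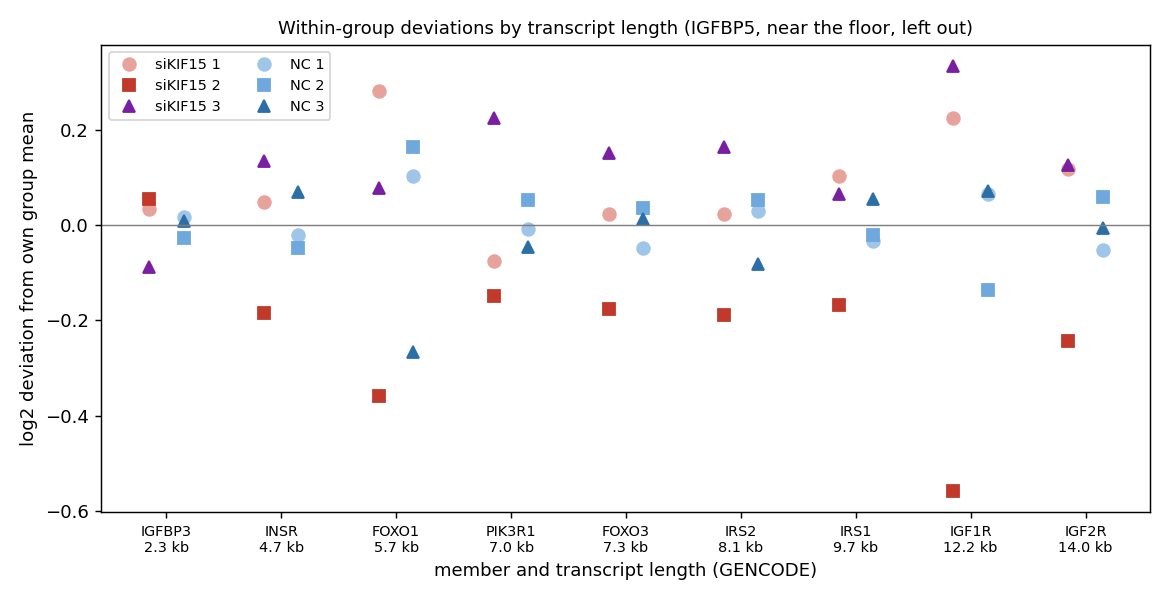
Deviation of log2(signal + 1) from the mean of its own group (y axis) for 9 genes ordered by transcript length (x axis, in kb), with 1 marker per library. The library siKIF15 2 lies below its group mean for every gene shown except IGFBP3, with IGF1R lowest at -0.56.

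Levels were compared between genes as signal per kilobase of transcript (GENCODE 29). IGFBP3 stood first, at 19490 ± 1024 in siKIF15 and 14670 ± 232.6 in NC (SD, n = 3). IGF2R (654.8 ± 91.7 and 674.9 ± 26.5) and FOXO3 (506.5 ± 57.1 and 672.5 ± 19.9) followed, and their libraries overlapped within each group. PIK3R1 came next at 338 ± 47.7 and 373.5 ± 12.8, then INSR at 279.5 ± 31.2 and 302.1 ± 13, which overlapped PIK3R1 in siKIF15 but not in NC. IRS1 was at 120.1 ± 11.8 and 155.2 ± 5.14. FOXO1 (43.8 ± 9.53 and 47.5 ± 7.33) and IGF1R (28.2 ± 8.54 and 33.8 ± 2.73) overlapped in siKIF15 but not in NC. IRS2 was at 12.8 ± 1.57 and 27.5 ± 1.34, and IGFBP5 was last at 2.25 ± 2.05 and 0.720 ± 0.413. The order was the same in both groups, and also when the longest coding transcript was used, which for INSR is 8954 in place of 4721 bases. With that transcript INSR was at 147.3 in siKIF15 and 159.3 in NC, so its distance from the other genes depends on the transcript taken.

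**Figure D4:**
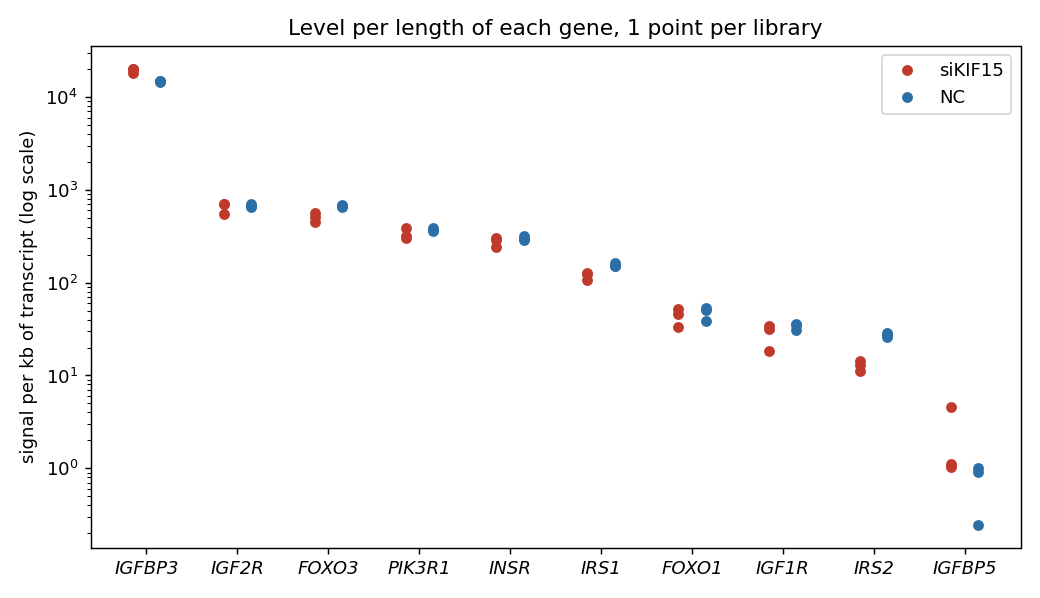
Signal per kilobase of transcript (y axis, log scale) of the 10 genes, with 1 point per library, siKIF15 in red and NC in blue. IGFBP3 is highest, IGFBP5 is lowest, and IRS2 is the gene whose groups lie furthest apart among those above the floor.

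Genes with a pattern most like IRS2 were sought among 11383 genes with a mean signal of at least 100, by the root mean square difference over the 6 libraries after subtracting each gene's NC mean on the log2(signal + 1) scale. The nearest were PGAP1 (0.081), EGR1, an immediate-early transcription factor (0.138), KBTBD11 (0.146), PGR (0.153) and PRUNE2 (0.158). PGAP1, which remodels GPI anchors, had a signal of 123.3, 108.8 and 157.6 in siKIF15, against 274.2, 295.1 and 243.3 in NC. All 5 had non-overlapping groups, as follows from picking them for likeness to IRS2. Their mean siKIF15 to NC ratios ran from 0.411 for PGR, the progesterone receptor, to 0.544 for PRUNE2. With 3 libraries a group this likeness is mostly that of the step between the groups. FOXO3 and IRS1 ranked 640th and 863rd in the same order.

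The rest of the pathway was described with 6 textbook lists of 114 genes, none among the 10; 110 were listed in the files and 106 tested. Of these, 14 rose and 20 fell in siKIF15, and their median log2 difference was -0.08, where 9.66% and 8.33% of all genes were called and the median over all was -0.0035. Without siKIF15 2 the counts were 13 and 14, and after the GC and length correction 19 and 25. Over all genes the calls moved too, to 1256 higher and 931 lower of 16540, and to 2230 and 2177 of 16122. The falls numbered 7 without siKIF15 1 or without NC 2, and 11 without NC 1 or without NC 3. All genes then had 417, 467, 724 and 679 falls in that order, in place of 1379. Long transcripts ran lower as a class: the median log2 difference was -0.10 over 5472 genes of at least 4000 bases and 0.04 over 10650 shorter ones, or -0.06 and 0.02 without siKIF15 2. After the correction these medians were 0.01 and -0.03. The correction fits length itself, so it brings these medians together whatever their difference came from.

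**Figure D5:**
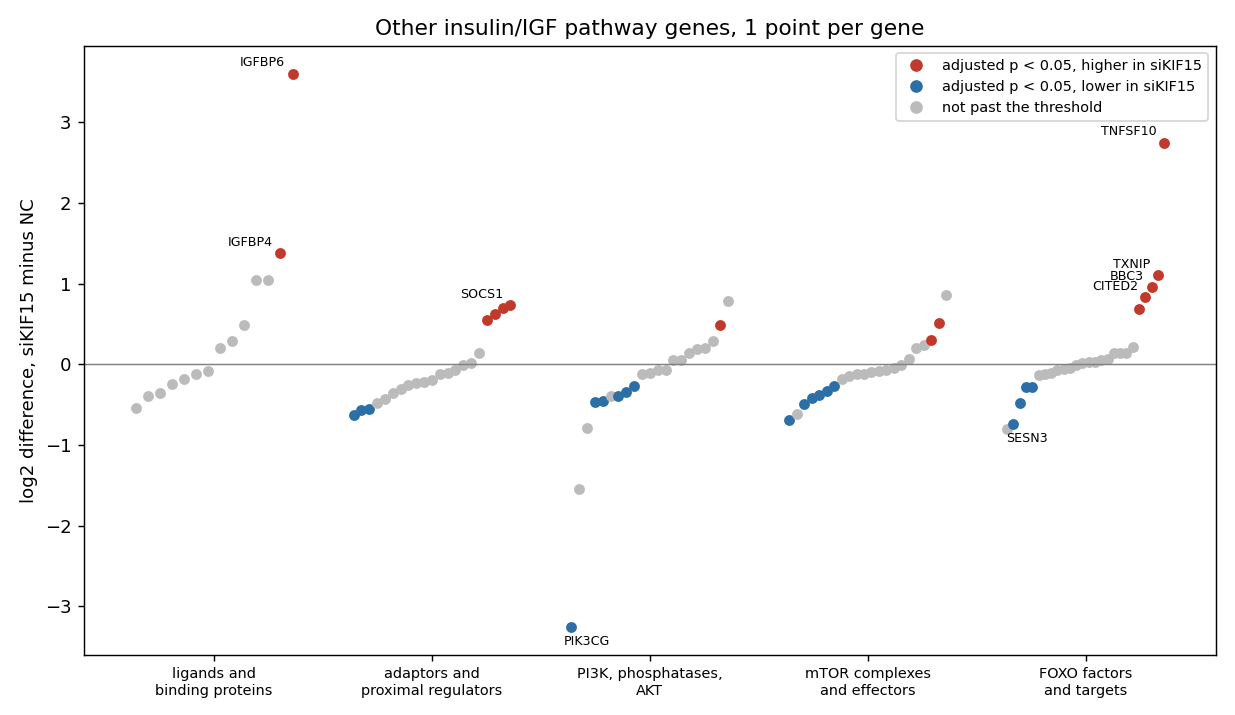
Log2 difference, siKIF15 minus NC (y axis), of each tested gene of 5 pathway lists (x axis), with genes past an adjusted p of 0.05 coloured by direction. IGFBP6 and TNFSF10 rise most, PIK3CG is lowest, and most other called genes lie within 1 log2 unit of 0.

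Among ligands, binding proteins and their proteases, 2 of 14 tested genes rose, none fell, and the median was 0.06. Over all genes tested, 9.66% rose and 8.33% fell. Without siKIF15 3 the list had 2 falls, and 1 after the GC and length correction, where 2540 and 2177 of all genes fell. IGFBP6, a binding protein that prefers IGF2, had a signal of 206.3, 231.8 and 253.7 in siKIF15, against 10.5, 15.9 and 34.5 in NC (log2 difference 3.60 ± 0.34 SE, limma adjusted p = 1.73e-06). It is the largest rise among the pathway genes. IGFBP4 had a signal of 39.8, 29.3 and 19.7 in siKIF15, against 6.6, 16 and 10.4 in NC (1.38 ± 0.42, limma adjusted p = 0.033), a call that ended without siKIF15 1, siKIF15 2, NC 1 or NC 3. IGFBP2, the other abundant binding protein, averaged 10657.1 ± 1694.2 in siKIF15 and 9213.6 ± 409 in NC and did not pass (limma adjusted p = 0.17). Of the ligand genes, IGF1 averaged 179.4 ± 47.5 in siKIF15 and 232.6 ± 35 in NC (limma adjusted p = 0.19), and IGF2 20.4 ± 6.8 and 16.3 ± 4.3 (limma adjusted p = 0.67). Without siKIF15 3, IGFBP2 passed as higher and IGF1 as lower, in a fit that called 2537 of all genes higher and 2540 lower. Both ligand genes overlapped between the groups.

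Of 21 adaptors and receptor-proximal regulators, 4 rose, 3 fell and 14 did not pass, with a median of -0.20. The shares over all genes tested were 9.66% higher and 8.33% lower. GRB10, an adaptor that inhibits INSR and IGF1R, had a signal of 8072.1, 7261 and 7869.5 in siKIF15, against 4909.9, 4710.9 and 4677.9 in NC (log2 difference 0.70 ± 0.07 SE, limma adjusted p = 3.16e-06). SH2B1, an adaptor that promotes insulin signalling, rose by 0.62 ± 0.08, so an inhibitor and an activator rose together. DOK4, a docking protein, rose by 0.55 ± 0.10 (limma adjusted p = 0.0017). SOCS1, a cytokine feedback gene whose product also targets IRS proteins for degradation, had a signal of 209.1, 181.7 and 155.9 in siKIF15, against 96, 120.9 and 109.9 in NC (0.73 ± 0.19, limma adjusted p = 0.014). Those that fell included SOS2, a RAS exchange factor (-0.57 ± 0.10), and GAB1, a docking adaptor (-0.62 ± 0.17). The SOCS1 call ended without siKIF15 1 or NC 1, and the GAB1 call without siKIF15 1, NC 1 or NC 2 and after the GC and length correction (-0.35). Without siKIF15 3 the list had 5 falls, and without siKIF15 1, NC 1 or NC 2 it had 1. Over all genes the falls in these fits were 2540, 417, 724 and 467 in that order. IRS4, the remaining IRS family gene of the list, averaged 531.6 ± 64.1 in siKIF15 and 522.7 ± 27.4 in NC (log2 difference 0.02, limma adjusted p = 0.94).

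The phosphoinositide 3-kinase, phosphatase and AKT list had 1 rise and 6 falls among 21 genes, with a median of -0.11. Of all genes tested, 9.66% were called higher and 8.33% lower. AKT1 had a signal of 17846.7, 18557.8 and 16436.7 in siKIF15, against 12587.1, 12419.9 and 12757.5 in NC (log2 difference 0.48 ± 0.07 SE, limma adjusted p = 0.00014). AKT2, its paralogue, averaged 13116 ± 737.2 and 14104.5 ± 382.6 and did not pass (limma adjusted p = 0.32). The catalytic subunit gene PIK3CB fell to 2757.7, 2743.5 and 3240.3 in siKIF15, against 3976.2, 4019.8 and 4001.4 in NC (-0.46 ± 0.08, limma adjusted p = 0.00075), a difference of -0.26, still past the threshold, after the GC and length correction. PDPK1, the kinase that activates AKT, fell by 0.34. PIK3R2, the other p85-type regulatory subunit, fell by 0.26, a call that ended without siKIF15 1, NC 1, NC 2 or NC 3 and with equal upper quartiles. PIK3CG lay near the floor, at 0, 2.1 and 5.1 in siKIF15 and 23.8, 32.5 and 18.8 in NC (limma adjusted p = 0.0019). The call of PDPK1 ended without NC 2. PIK3CA, a catalytic subunit gene, also fell, at -0.39 (limma adjusted p = 0.045), and lost its call without any single library other than siKIF15 3, with equal upper quartiles and after the GC and length correction (-0.06). The list had 3 falls without siKIF15 1 and 2 without NC 2, where 417 and 467 of all genes fell.

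Of 22 genes of the mTOR complexes and their effectors, 2 rose, 6 fell and 14 did not pass, with a median of -0.11. Over all genes tested, 9.66% rose and 8.33% fell. DEPTOR, an inhibitor bound to mTOR, had a signal of 1966.7, 1991.5 and 2229.3 in siKIF15, against 2952.4, 2941.6 and 2826.4 in NC (log2 difference -0.50 ± 0.08 SE, limma adjusted p = 0.00035). RICTOR, the scaffold of mTOR complex 2, fell to 491.2, 387.9 and 609.4 in siKIF15, against 777.9, 765.7 and 819.7 in NC (-0.69 ± 0.14, limma adjusted p = 0.0030). GSK3B, a kinase that AKT inhibits, fell by 0.34, and TSC1, part of the complex that restrains mTOR complex 1, fell by 0.42. RPTOR, the scaffold of mTOR complex 1, and RPS6KB1, a kinase it activates, fell by 0.27 and 0.38. ULK1, the autophagy kinase, rose by 0.51 ± 0.08 (limma adjusted p = 0.00051), and DDIT4, a stress-induced mTOR inhibitor, rose by 0.30 ± 0.07 (limma adjusted p = 0.0075). MTOR itself averaged 3850.4 ± 534.9 and 4361.1 ± 173.5 and did not pass (limma adjusted p = 0.18). It did pass, as lower, without siKIF15 3, where 2540 of all genes were called lower. After the GC and length correction RICTOR was at -0.36, TSC1 at -0.25 and DDIT4 at 0.14, all still past the threshold, and RPS6KB1 at -0.17 was not. In limma without the intensity trend RICTOR, TSC1, DDIT4 and RPS6KB1 all lost their calls. The number of falls was 1 without siKIF15 1, 2 without NC 2, 3 without NC 3 and 10 after the GC and length correction. Over all genes the falls in these fits were 417, 467, 679 and 2177 in that order. Without siKIF15 1 all calls of this list named above ended except those of DEPTOR and ULK1.

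FOXO4, FOXO6 and known FOXO targets were mixed: of 26 tested, 5 rose, 4 fell and 17 did not pass, with a median of 0.02. The shares over all genes tested were 9.66% higher and 8.33% lower. TXNIP, a thioredoxin-binding protein, had a signal of 11217.3, 11039.2 and 11775.4 in siKIF15, against 5404.3, 4925.9 and 5507.1 in NC (log2 difference 1.10 ± 0.07 SE, limma adjusted p = 1.4e-08). TNFSF10, the death ligand TRAIL, had a signal of 322.5, 388.4 and 396.1 in siKIF15, against 41.2, 61 and 62.7 in NC (2.74 ± 0.20). CITED2, SOD2 and BBC3 rose by 0.83, 0.68 and 0.95. TNFSF10 is also a known interferon target, SOD2 a known NF-kappa B target and BBC3 a known p53 target. The falls were KLF15, a metabolic transcription factor (-0.48 ± 0.08), SESN3, a stress protein of the mTOR pathway (-0.74 ± 0.12), BCL6, a repressor (-0.28 ± 0.07), and CCNG2, a cyclin of arrested cells (-0.28 ± 0.08). The calls of BCL6 and CCNG2 ended without any single library other than siKIF15 3, which left 2 falls, and that of CCNG2 also after the GC and length correction (-0.10). The same correction left SESN3 at -0.42 and raised SOD2 to 1.03, both past the threshold. In limma without the intensity trend SESN3 lost its call. FOXO4 averaged 495.4 ± 4.3 in siKIF15 and 426.3 ± 21.3 in NC and did not pass (limma adjusted p = 0.21), and CDKN1B, the cell cycle inhibitor p27, had a log2 difference of -0.0057. In the short list of IGF2 partners, IGF2BP3, an RNA-binding protein, fell by 0.41 (limma adjusted p = 0.030), a call that also ended without any single library other than siKIF15 3, and IGF2BP2 did not pass.

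Interferon-induced genes differed between the same libraries. All 12 checked rose, with a median log2 difference of 4.51 and summed signals of 370326 to 410755.7 in siKIF15 against 14057.7 to 14263.2 in NC. Over all genes tested, 9.66% rose. The 12 include IFNB1, the gene of interferon beta itself, which averaged 2249.3 in siKIF15 and 1.2 in NC. The call of MX1 ended without siKIF15 1, siKIF15 3, NC 1 or NC 2 and with equal totals. Their part in the insulin and IGF gene differences was not tested.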

How the data were processed

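RNA-seq of 6 libraries was analysed, 3 labelled siKIF15 and 3 NC, grouped by their titles. The deposited files give 1 signal value per gene symbol, made by the authors in a way the sources used here do not state; the submitters' processing notes name Bowtie 0.12.2 and mouse builds although the cells are human. Whole reads were not recovered from them. Of 17356 symbols, 16548 with a group mean of at least 1 were tested by limma 3.58.1 (R 4.3.3) with an intensity trend on log2(signal + 1), a scale that understates changes of low genes, with Benjamini-Hochberg adjustment over all and a threshold of 0.05. The fit was tested on simulated data with independent noise for each gene. Those data lack the GC and length trends of these libraries, so they do not vouch for the calls here. Lengths, GC content and gene positions come from GENCODE 29 (GRCh38), which matched 16822 symbols directly and 54 through older symbols, and promoters from RefSeq. The GC and length correction removed natural splines of both, fitted to each library's deviation from the mean of all 6 libraries. It therefore also removes group differences that follow GC content or length. Genes sharing reads with copies, overlapping or antisense genes are uncertain, since strand and multi-mapping rules are not stated. The 10 genes and all lists were chosen with earlier results of these data known. Named pathway genes are those past the threshold, up to 6 per list by adjusted p, except some that are not reported here; others named were chosen after their values were seen. The GC box was also added after the promoters were seen. A planned protein comparison was not run.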

Additional observations from a re-analysis of the deposited data

How the results depend on the processing

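The counts of calls and the differences of the named genes were recomputed under 16 alternatives; list medians, levels per kilobase and the likeness to IRS2 were not. Over all genes, single libraries left out gave 767 to 2537 calls higher and 417 to 2540 lower, and limma without its trend gave 760 and 310. The GC and length correction gave 2177 lower, and 2240 with the replicate block added. Of the 10 genes, 3 to 5 stayed past the threshold without single libraries and 2 without the trend. Of the other pathway genes, 11 to 17 were called higher and 7 to 27 lower without single libraries, and 4 were lower without the trend. The pseudocount, the low-value filter and both scalings kept these counts within 1.5 times. The 4 pathway genes lower without the trend were SOS2, PIK3CB, DEPTOR and KLF15, and every other named fall of the lists lost its call there. Of the named rises, IGFBP4, SOCS1 and DDIT4 lost theirs in that fit. None of the named genes called from all 6 libraries changed direction in any alternative. Same-numbered libraries did not deviate together (correlations of 0.033, -0.057 and 0.015). These deviations also followed GC content and length, so the values cannot decide whether the libraries were paired, and the labels do not state it. The replicate block gave 1654 genes higher and 1530 lower, 4 of the 10 genes, and 14 higher and 22 lower pathway genes. Depth is unknown, so values near the floor, such as IGFBP5, cannot be given a counting error.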
